A study of Thermochaetoides thermophila with 9 samples.

Results

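Glycolysis was followed in *Chaetomium thermophilum* (Thermochaetoides thermophila in the sample labels), a thermophilic filamentous ascomycete, through 3 of the 7785 genes in the count table. These genes code for phosphofructokinase (CTHT_0014530), glyceraldehyde 3-phosphate dehydrogenase (GAPDH, CTHT_0004880) and pyruvate kinase (CTHT_0017880), and they were chosen by locus tag and enzyme name. All 3 genes are annotated as protein-coding, and all 3 passed the filter on low counts. Transcripts were measured by mRNA sequencing in 9 cultures of wild-type mycelium, 3 per condition. All of them had first been kept for 48 h without sugar (42 h according to the Methods). For the last 6 h they received 1% xylose, 1% glucose or, as the reference, no sugar, according to the labels. The Methods give the 6 h step for the sugars only. The medium without sugar held salts, peptone and yeast extract. The comparisons ask whether transcripts of glycolytic enzymes differed between mycelium given either sugar and mycelium left without sugar, and between the sugars.

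Glycolysis splits glucose into pyruvate in the cytosol. Phosphofructokinase commits fructose 6-phosphate to the pathway, GAPDH oxidizes the triose phosphate and forms NADH, and pyruvate kinase releases pyruvate and ATP in the last step. The first and the last of these reactions are practically irreversible in the cell, and gluconeogenesis passes around them with enzymes of its own. Glucose enters at the top of the pathway, whereas xylose reaches it through the pentose phosphate pathway as fructose 6-phosphate and glyceraldehyde 3-phosphate.

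The libraries held 38806913 to 52229013 counted reads, of which the gene of the 26S rRNA took 7.36% to 32.0%. Levels are given as CPM, the read count of a gene scaled to the size of its library, with library sizes adjusted by the TMM method. Of the 7785 genes, 6904 were tested in 1 model over the 9 libraries with edgeR's quasi-likelihood test, and an adjusted p-value (Benjamini-Hochberg over all genes tested) under 0.05 is called a change. Changes are log2-fold changes with their standard error (SE). The labels describe the replicates as biological. The xylose and the glucose comparison with the reference share the 3 reference libraries, so their values are not independent. Each of the 3 genes was read deeply, with 1350 to 9982 reads per library for phosphofructokinase, 28787 to 390376 for GAPDH and 5390 to 55801 for pyruvate kinase, so that the spread between cultures and not the counting limits their precision. Reference replicate 2 stood apart from the other reference libraries in these genes, and their results are therefore also given without it. It was picked because these genes are high in it, so its omission raises their log2-fold changes against the reference by that choice. Values and calls without it are a description and no further support.

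The phosphofructokinase gene had more transcript in both sugars than in the reference. CTHT_0014530 had 139, 132 and 196 CPM in xylose, 170, 162 and 191 CPM in glucose, and 38.2, 69.5 and 32.2 CPM in the reference. Each of the 6 sugar libraries lay above each reference library, whereas the libraries of both sugars overlapped. The gene was 3.34-fold higher in xylose (log2-fold change 1.74, SE 0.32, adjusted p = 0.000675, edgeR) and 3.73-fold higher in glucose (1.90, SE 0.32, adjusted p = 0.000891, edgeR) than in the reference. With reference replicate 2 omitted the values were 2.04 in xylose and 2.32 in glucose. It was the steadiest of the 3 genes between replicates, with 1.48-fold between the lowest and the highest xylose library and 1.18-fold between those of glucose. In the reference this was 2.16-fold.

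The GAPDH gene spread more widely. CTHT_0004880 had 2519, 8472 and 4883 CPM in xylose, 6545, 7336 and 10157 CPM in glucose, and 919, 3733 and 687 CPM in the reference. All glucose libraries lay above all reference libraries, but the first xylose library lay below the second reference library. The gene rose 4.5-fold in glucose (log2-fold change 2.17, SE 0.75, adjusted p = 0.0320, edgeR). In xylose the difference from the reference was 1.57 (SE 0.73, adjusted p = 0.0790, edgeR), with a 95% interval of -0.04 to 3.18, and was not called a change. This call depended on the method. The difference passed the threshold with libraries scaled by total counts (1.65, edgeR adjusted p = 0.0350). It also passed in the DESeq2 Wald test, the test of the study, as run anew here (1.53, adjusted p = 0.0222). The paper itself names this gene as an example of glycolytic genes not differentially transcribed with either sugar. The highest library was 3.36 times the lowest in xylose, 1.55 times in glucose and 5.43 times in the reference. The rise in glucose did not pass the threshold when glucose replicate 2 (2.23, edgeR adjusted p = 0.0650), glucose replicate 3 (1.99, adjusted p = 0.0778), reference replicate 1 (1.86, adjusted p = 0.114) or reference replicate 3 (1.78, adjusted p = 0.10) was omitted. With reference replicate 2 omitted the gene rose in both sugars, to a log2-fold change of 2.63 in xylose (edgeR adjusted p = 0.00177) and 3.33 in glucose (adjusted p = 0.000825). That library was picked for its high values in these genes, so these calls add no support.

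The pyruvate kinase gene rose in both sugars, with the larger estimate in xylose. CTHT_0017880 had 585, 1211 and 862 CPM in xylose, 506, 480 and 761 CPM in glucose, and 131, 383 and 129 CPM in the reference. Each sugar library was above each reference library, and the lowest xylose library lay below the highest glucose library. The gene was 4.13-fold higher in xylose (log2-fold change 2.05, SE 0.50, adjusted p = 0.00386, edgeR) and 2.72-fold higher in glucose (1.44, SE 0.49, adjusted p = 0.0303, edgeR). The change in xylose was called whichever library was left out. The one in glucose was not called when glucose replicate 2 (1.57, edgeR adjusted p = 0.0517), glucose replicate 3 (1.22, adjusted p = 0.0914), reference replicate 1 (1.19, adjusted p = 0.110) or reference replicate 3 (1.18, adjusted p = 0.103) was omitted, and was 2.18 with reference replicate 2 omitted (adjusted p = 0.000884), where that in xylose was 2.67.

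**Figure D1:**
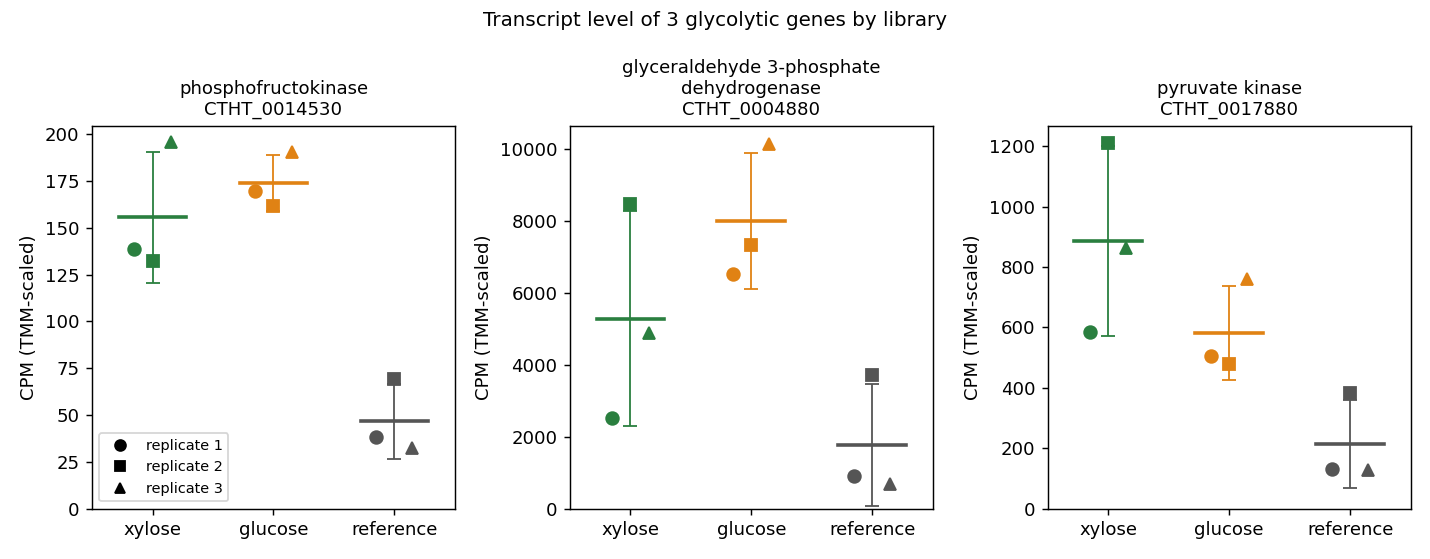
Transcript level (CPM scaled by TMM, linear axis from 0) of the genes for phosphofructokinase, GAPDH and pyruvate kinase in the 3 libraries of each condition. Symbols mark the replicate number, horizontal lines the mean and bars the SD (n = 3). The second reference library is the highest of the reference in all 3 panels, at 69.5, 3733 and 383 CPM.

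Counted over these genes, 2 of 3 rose in xylose and 3 of 3 rose in glucose, and none fell. Over all genes tested, 64.6% were called in xylose against the reference (32.3% higher and 32.4% lower), and 49.5% in glucose against the reference (24.0% higher and 25.4% lower). A change of a single gene was therefore common in this experiment. The median log2-fold change of the 3 genes was 1.74 in xylose and 1.90 in glucose, against -0.05 in both comparisons over all genes tested. The counts depended on single libraries. In glucose 1 of 3 genes was called when glucose replicate 2, glucose replicate 3, reference replicate 1 or reference replicate 3 was omitted. Over all genes, those fits called 2522 of 6957, 2782 of 6964, 2695 of 6931 and 2627 of 6932. Without reference replicate 2, which was picked for its high values in these genes, 3 of 3 genes rose in each sugar. That fit called 4664 of 6959 genes in xylose and 3837 of 6959 in glucose. In xylose 3 of 3 were also called with total counts and by the DESeq2 Wald test.

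Between the sugars, 0 of the 3 genes were called, although 50.8% of all genes tested differed there (28.2% higher and 22.6% lower in xylose). At an unadjusted p-value under 0.05, also 0 of the 3 genes passed, as against 3963 of all genes, and the DESeq2 Wald test called 0 as well. The estimates were not tight enough to call the genes equal. The 95% interval of the log2-fold change of xylose against glucose ran from -0.85 to 0.52 for phosphofructokinase, from -2.18 to 0.98 for GAPDH and from -0.45 to 1.67 for pyruvate kinase. By mean CPM, phosphofructokinase and GAPDH were in the order glucose, xylose, reference, and pyruvate kinase in the order xylose, glucose, reference. In each order the first and the second condition did not differ beyond their spread.

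The balance among the 3 transcripts was compared as ratios of reads within each library, which do not depend on how libraries are scaled. For each read of pyruvate kinase there were 4.3, 7.0 and 5.67 reads of GAPDH in xylose, 12.9, 15.3 and 13.3 in glucose, and 7.0, 9.75 and 5.34 in the reference. The glucose libraries stood apart from all 6 others, whereas xylose and the reference overlapped. On the log2 scale, the ratio of pyruvate kinase to GAPDH was -2.47 ± 0.35 in xylose and -3.79 ± 0.13 in glucose (SD, n = 3 each), a difference of 1.32 (exact permutation test, two-sided, p = 0.10, adjusted p = 0.15 over 3 ratios). This p is the smallest that 3 against 3 libraries can give, so the test could not reach 0.05. In the reference it was -2.84 ± 0.43, and glucose was lower by a log2 difference of -0.95 (exact permutation test, p = 0.10).

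Pyruvate kinase relative to phosphofructokinase followed the same pattern between the sugars. There were 4.23, 9.14 and 4.40 reads of pyruvate kinase for each read of phosphofructokinase in xylose, 2.98, 2.97 and 3.99 in glucose, and 3.44, 5.51 and 3.99 in the reference. The 3 xylose ratios were above the 3 glucose ratios, by a mean log2 difference of 0.76 (exact permutation test, p = 0.10, adjusted p = 0.15), and this was 0.39 without xylose replicate 2. Phosphofructokinase relative to GAPDH overlapped between the sugars, with a difference of 0.56 (exact permutation test, p = 0.40, adjusted p = 0.40) that ranged from 0.18 without xylose replicate 1 to 1.09 without xylose replicate 2.

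**Figure D2:**
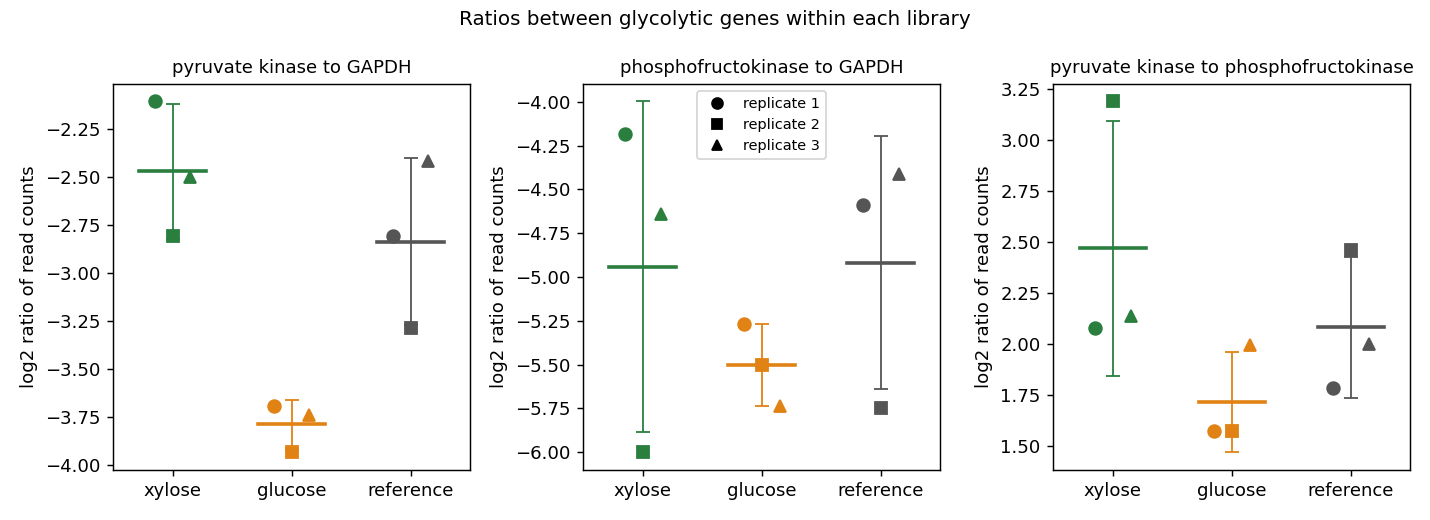
Log2 ratios of read counts between the 3 genes within each library, by condition. Symbols mark the replicate number, lines the mean and bars the SD (n = 3). The glucose libraries have the lowest ratios of pyruvate kinase to GAPDH, between -3.93 and -3.69, below every xylose and reference library.

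Further glycolytic genes were taken from the annotation that accompanies the study, of which only part was held here (the top of a ranking by level in glucose and of lists of changed genes). Genes that changed are therefore more likely to be among them, hexokinase in particular, which was known only from the changed genes. They cover the remaining 7 steps, 1 gene each. In xylose 5 of the 7 rose, 0 fell and 2 were not called. In glucose 4 rose, 1 fell and 2 were not called. With 5 of 7 called in each sugar, against 64.6% of all genes in xylose and 49.5% in glucose, the number of calls by itself is no result about these genes. For all 10 steps, the members included, the median log2-fold change was 1.89 in xylose and 1.97 in glucose, and -0.06 for xylose against glucose, while over all genes tested the last median was 0.16.

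At the top of the pathway the sugars parted in the 1 hexokinase gene listed. The gene of hexokinase (CTHT_0057190), which phosphorylates glucose on entry, had 55.2, 34.8 and 67.1 CPM in xylose, 15, 12.9 and 14.7 CPM in glucose, and 21.7, 31.4 and 21.3 CPM in the reference. The libraries of the 3 conditions did not overlap. It was higher in xylose than in the reference (1.08, SE 0.28, adjusted p = 0.00536, edgeR) and higher in xylose than in glucose (1.88, SE 0.29, adjusted p = 0.000334, edgeR). In glucose it was lower than in the reference (-0.80, SE 0.28, adjusted p = 0.0326, edgeR), a call that was lost without any one of the 3 glucose libraries or reference replicate 2 (-0.58 without the last, adjusted p = 0.0897) and with 4 other settings. Hexokinase was the 1 gene of the 10 that was called between the sugars. It was listed only because it was among the changed genes of these data, so this call partly follows from that choice. Further genes for the same step could not be searched for by product name.

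The gene of glucose-6-phosphate isomerase (CTHT_0035120), which makes the substrate of phosphofructokinase, had 462, 596 and 664 CPM in xylose, 246, 233 and 274 CPM in glucose, and 31.3, 125 and 26.5 CPM in the reference. It rose by 3.24 in xylose (SE 0.56, adjusted p = 0.000426, edgeR) and by 2.04 in glucose (SE 0.53, adjusted p = 0.00865, edgeR). All xylose libraries exceeded all glucose libraries, but the difference of 1.19 was not called (adjusted p = 0.0743, edgeR). It was called when reference replicate 2 (1.08, edgeR adjusted p = 0.00248) or reference replicate 3 (1.19, 0.0454) was omitted.

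In the middle of the pathway triosephosphate isomerase was called in both sugars and aldolase in neither, and the genes were not tested against each other. Fructose-bisphosphate aldolase (CTHT_0050360), which cleaves the product of phosphofructokinase, had 588, 825 and 1162 CPM in xylose, 1248, 1072 and 1476 CPM in glucose, and 722, 1486 and 646 CPM in the reference. Its libraries overlapped between conditions and no comparison was called, with -0.15 in xylose (edgeR adjusted p = 0.779) and 0.41 in glucose (0.461). With reference replicate 2 omitted the log2-fold changes were 0.22 in xylose (edgeR adjusted p = 0.573) and 0.90 in glucose (0.0417). Triosephosphate isomerase (CTHT_0025650), which interconverts the trioses, had 350, 312 and 535 CPM in xylose, 492, 478 and 644 CPM in glucose, and 34.5, 177 and 18.4 CPM in the reference. Every sugar library exceeded every reference library, and the gene rose by 2.38 in xylose (SE 0.69, adjusted p = 0.0102, edgeR) and by 2.81 in glucose (SE 0.70, adjusted p = 0.00707, edgeR).

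In the lower part, phosphoglycerate kinase (CTHT_0037370), which follows GAPDH and forms ATP, had 747, 1167 and 1418 CPM in xylose, 1004, 1197 and 2153 CPM in glucose, and 250, 1139 and 226 CPM in the reference. The second reference library lay within the range of both sugars, and the differences of 1.04 in xylose (SE 0.63, adjusted p = 0.163, edgeR) and 1.43 in glucose (SE 0.64, adjusted p = 0.0816, edgeR) were not called. With that library omitted they were 2.12 in xylose (edgeR adjusted p = 0.00121) and 2.62 in glucose (0.000615).

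Phosphoglycerate mutase (CTHT_0016420), which moves the phosphate group, had 455, 349 and 724 CPM in xylose, 296, 282 and 331 CPM in glucose, and 65.6, 104 and 51.8 CPM in the reference. It rose by 2.79 in xylose (SE 0.38, adjusted p = 9.26e-05, edgeR) and by 2.04 in glucose (SE 0.37, adjusted p = 0.00131, edgeR), and both calls were kept in each fit that left out 1 library. Enolase (CTHT_0067300), which makes phosphoenolpyruvate for pyruvate kinase, had 2165, 3036 and 3783 CPM in xylose, 2480, 2589 and 3648 CPM in glucose, and 281, 1530 and 156 CPM in the reference. No sugar library was as low as a reference library. Enolase rose by 2.19 in xylose (SE 0.75, adjusted p = 0.0237, edgeR) and by 2.15 in glucose (SE 0.75, adjusted p = 0.0344, edgeR). Both calls depended on single libraries. With reference replicate 3 omitted, enolase differed by 1.73 in xylose (edgeR adjusted p = 0.0568) and 1.68 in glucose (0.0829), and with reference replicate 1 omitted by 1.83 (0.0839) and 1.79 (0.114). The call in xylose was also lost when xylose replicate 3 was omitted (2.0, edgeR adjusted p = 0.0621), and the call in glucose when glucose replicate 2 (2.23, 0.0628) or glucose replicate 3 (1.98, 0.0806) was.

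**Figure D3:**
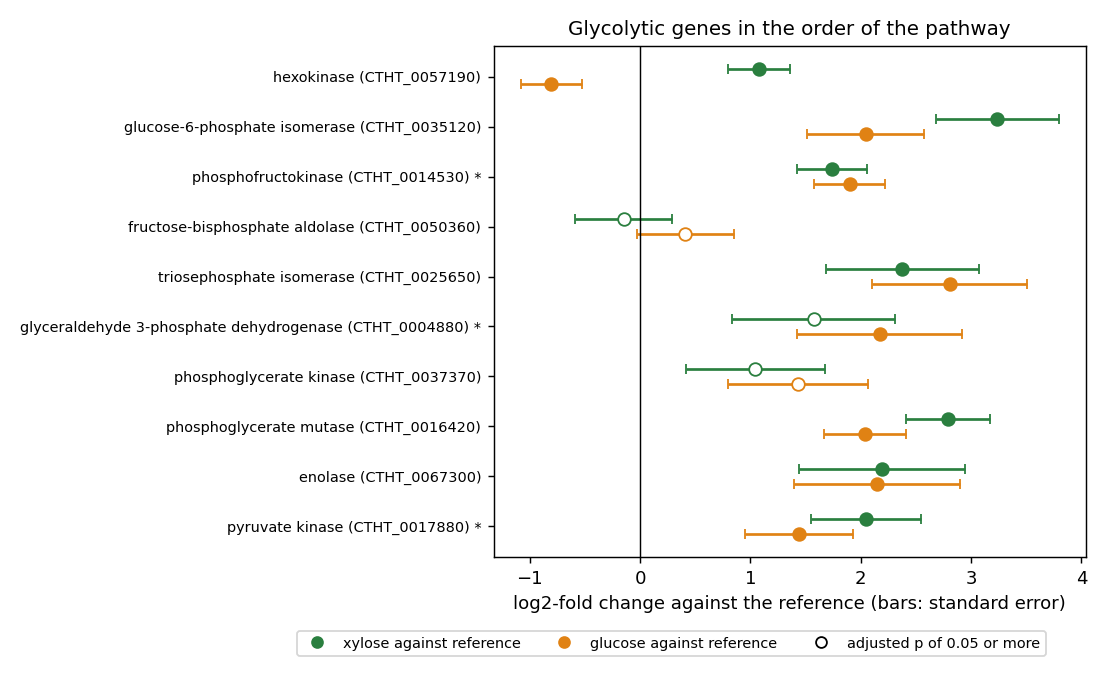
Log2-fold changes of 10 glycolytic genes, in the order of the reactions, for xylose (above) and glucose (below) against the reference. Bars are standard errors, open circles mark an adjusted p-value of 0.05 or more, and asterisks mark the genes for phosphofructokinase, GAPDH and pyruvate kinase. The values lie between 1.04 and 3.24 in xylose and between 1.43 and 2.81 in glucose, except those of hexokinase in glucose (-0.80) and of aldolase in both sugars (-0.15 and 0.41).

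One reference culture stood apart in these genes and in genes outside glycolysis. In reference replicate 2, phosphofructokinase (CTHT_0014530) was 1.97 times, GAPDH (CTHT_0004880) 4.65 times and pyruvate kinase (CTHT_0017880) 2.95 times the mean CPM of the other 2 reference libraries. Over the 10 glycolytic genes this factor had a median of 3.64 and ran from 1.46 for hexokinase (CTHT_0057190) to 7.0 for enolase (CTHT_0067300), while its median over all 6904 genes tested was 0.973. A factor above 2.5 was found for 6 of the 10 genes and for 7.75% of all genes tested. Outside glycolysis, phosphoenolpyruvate carboxykinase (CTHT_0044390) had 2.70 and transketolase (CTHT_0066780) 2.37, while pyruvate dehydrogenase phosphatase (CTHT_0020390) had 0.276. A further gene listed as phosphoenolpyruvate carboxykinase by its KEGG orthologue only (CTHT_0017070) had 0.412. Over all genes, the log2 deviations from the condition mean had an SD of 0.625 in this library, the largest of any library, followed by 0.583 in xylose replicate 2. The pattern was noticed after the data were seen, and no test was made of it.

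All 10 genes were above the condition mean in reference replicate 2, by 0.37 to 1.91 on the log2 scale, and 0 of 10 were above it in reference replicates 1 and 3. Of all genes, 49.1%, 52.6% and 48.1% were above it in reference replicates 2, 1 and 3. With libraries scaled by their total counts, 10, 1 and 0 of 10 were above it in replicates 2, 1 and 3. The 26S rRNA gene took 15.7% of the reads in reference replicate 2, and 17.3% and 32.0% in reference replicates 1 and 3. The total counts of these libraries were 48802019, 47195974 and 43158740. Whether rRNA or depth has a part in the pattern was not tested. In the sugars, 1, 5 and 10 of 10 genes were above the mean in xylose replicates 1, 2 and 3, and 1, 0 and 10 in glucose replicates 1, 2 and 3. Of all genes, 53.7% were above it in xylose replicate 3 and 48.4% in glucose replicate 3. All 10 genes were above it in xylose replicate 3 and in glucose replicate 3, by a median of 0.39 and 0.25. With total counts this was 8 of 10 in xylose replicate 3 but only 2 of 10 in glucose replicate 3, where the 26S rRNA gene took 22.9% of the reads, so that the high position of the glucose library depended on the scaling.

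**Figure D4:**
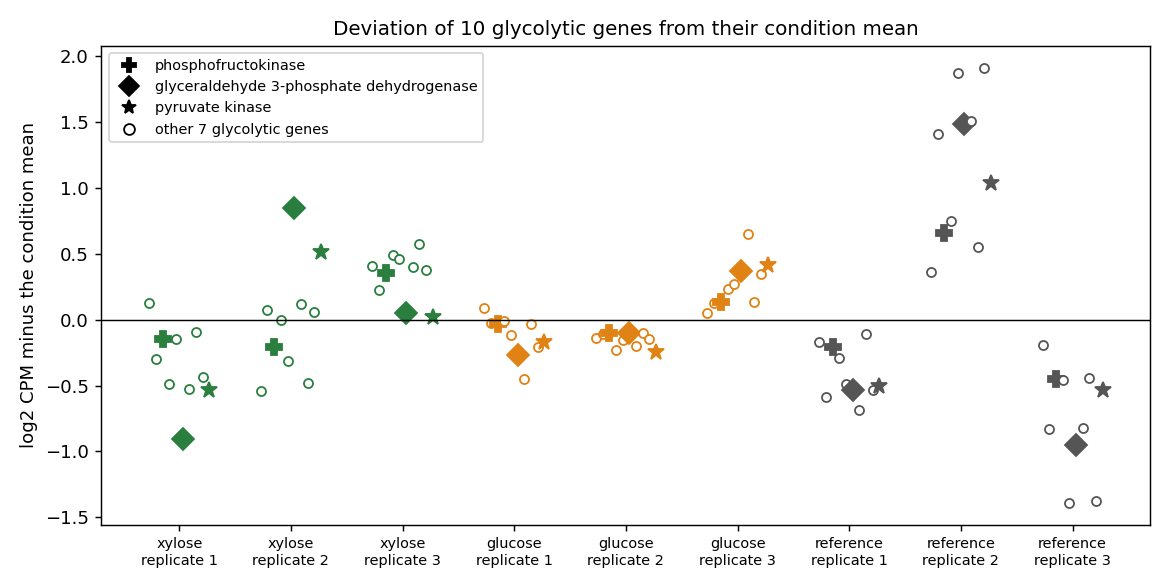
Log2 CPM of 10 glycolytic genes minus the mean of their condition, for each of the 9 libraries. Filled symbols are phosphofructokinase, GAPDH and pyruvate kinase, open circles the other 7 genes. All 10 genes lie above 0 in reference replicate 2, with a median of 1.23, and below 0 in reference replicates 1 and 3.

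Genes that set the main effector of phosphofructokinase were low in xylose. Fructose 2,6-bisphosphate is known from yeast and animals as an activator of phosphofructokinase and an inhibitor of fructose-1,6-bisphosphatase, and enzymes of the families below make and remove it. The gene annotated as 6-phosphofructo-2-kinase (CTHT_0008350), the enzyme that makes it, had 124, 236 and 143 CPM in xylose, 591, 1126 and 2172 CPM in glucose, and 417, 812 and 716 CPM in the reference. It was lower in xylose than in the reference (-1.95, SE 0.52, adjusted p = 0.00609, edgeR) and lower in xylose than in glucose (-2.95, SE 0.54, adjusted p = 0.000986, edgeR). The gene annotated as fructose-2,6-bisphosphatase (CTHT_0000660), which removes it, had 44.1, 111 and 120 CPM in xylose, 405, 557 and 835 CPM in glucose, and 375, 632 and 511 CPM in the reference. It was likewise lower in xylose, by -2.46 against the reference (SE 0.45, adjusted p = 0.000674, edgeR) and by -2.71 against glucose (SE 0.46, adjusted p = 0.000638, edgeR). For both genes all xylose libraries were below all others, and glucose overlapped with the reference (1.00, adjusted p = 0.118, and 0.24, adjusted p = 0.665, edgeR). The transcripts of the kinase and of the phosphatase thus fell in xylose, whereas that of phosphofructokinase (CTHT_0014530) rose.

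The genes of fructose-1,6-bisphosphatase and phosphoenolpyruvate carboxykinase, whose enzymes run against glycolysis, were lower in xylose than in glucose. Fructose-1,6-bisphosphatase (CTHT_0042460), which reverses the step of phosphofructokinase, had 15.7, 41.6 and 29.1 CPM in xylose, 420, 569 and 381 CPM in glucose, and 817, 1174 and 917 CPM in the reference. The 3 conditions did not overlap. The gene was 33.6-fold lower in xylose than in the reference (-5.07, SE 0.46, adjusted p = 7.93e-06, edgeR) and 15.9-fold lower in xylose than in glucose (-3.99, SE 0.44, adjusted p = 7.32e-05, edgeR). In glucose it was lower than in the reference by -1.09 (adjusted p = 0.0391, edgeR), a call that was lost with 7 of the 9 libraries when each was omitted in turn, with values between -1.27 and -0.81.

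Phosphoenolpyruvate carboxykinase (CTHT_0044390), whose reaction leads around pyruvate kinase, had 61.7, 73.8 and 86.5 CPM in xylose, 2503, 3111 and 2630 CPM in glucose, and 1955, 4591 and 1441 CPM in the reference. It was 36.0-fold lower in xylose than in the reference (-5.17, SE 0.58, adjusted p = 2.49e-05, edgeR) and 37.1-fold lower in xylose than in glucose (-5.21, SE 0.58, adjusted p = 7.42e-05, edgeR). Glucose overlapped with the reference (0.05, adjusted p = 0.943, edgeR). A further gene, CTHT_0017070, was listed as phosphoenolpyruvate carboxykinase by its KEGG orthologue only, and its falls were smaller. It differed by -2.24 in xylose against the reference (adjusted p = 0.000839, edgeR) and by -1.76 in xylose against glucose (adjusted p = 0.00504, edgeR). In glucose against the reference it was not called (-0.48, adjusted p = 0.348, edgeR). Pyruvate kinase (CTHT_0017880) and phosphofructokinase (CTHT_0014530) were higher in both sugars, while the genes of these opposing enzymes were low mainly in xylose.

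Malate synthase (CTHT_0012510), of the glyoxylate cycle that feeds gluconeogenesis from acetyl units, was low in both sugars, with 54.2, 60.1 and 48.5 CPM in xylose, 62.6, 72.0 and 89.1 CPM in glucose, and 676, 699 and 865 CPM in the reference. It fell in xylose (-3.78, SE 0.31, adjusted p = 5.31e-06, edgeR) and in glucose (-3.32, SE 0.30, adjusted p = 2.88e-05, edgeR), and the sugars did not differ at the threshold (-0.46, adjusted p = 0.186, edgeR). The isocitrate lyase gene CTHT_0062350 of the same cycle was lower in xylose (-2.77, edgeR adjusted p = 0.00114) and in glucose (-3.26, adjusted p = 0.00105). A second gene annotated as isocitrate lyase (CTHT_0010800) had 126, 135 and 172 CPM in xylose, 114, 87.9 and 89.2 CPM in glucose, and 101.4, 190 and 97.3 CPM in the reference. It was called in no comparison, with 0.16 in xylose (edgeR adjusted p = 0.663), -0.42 in glucose (0.272) and 0.57 for xylose against glucose (0.133). Of the 6 genes listed for gluconeogenesis and the glyoxylate cycle, 5 fell in xylose and 3 in glucose, 0 rose in either, and 3 were lower in xylose than in glucose. Of all genes tested, 32.4% fell in xylose and 25.4% in glucose, and 22.6% were lower in xylose than in glucose. The 3 of 6 called in glucose match the 49.5% of all genes called there. Likewise, the 3 of 6 called between the sugars match the 50.8% of all genes called there. The product names came from the annotation held in part, so changed genes are more likely to be among the 6. The median log2-fold change of the 6 genes was -3.28 in xylose and -0.78 in glucose, against -0.05 over all genes in both. Malate synthase and this isocitrate lyase were listed from the changed genes only.

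**Figure D5:**
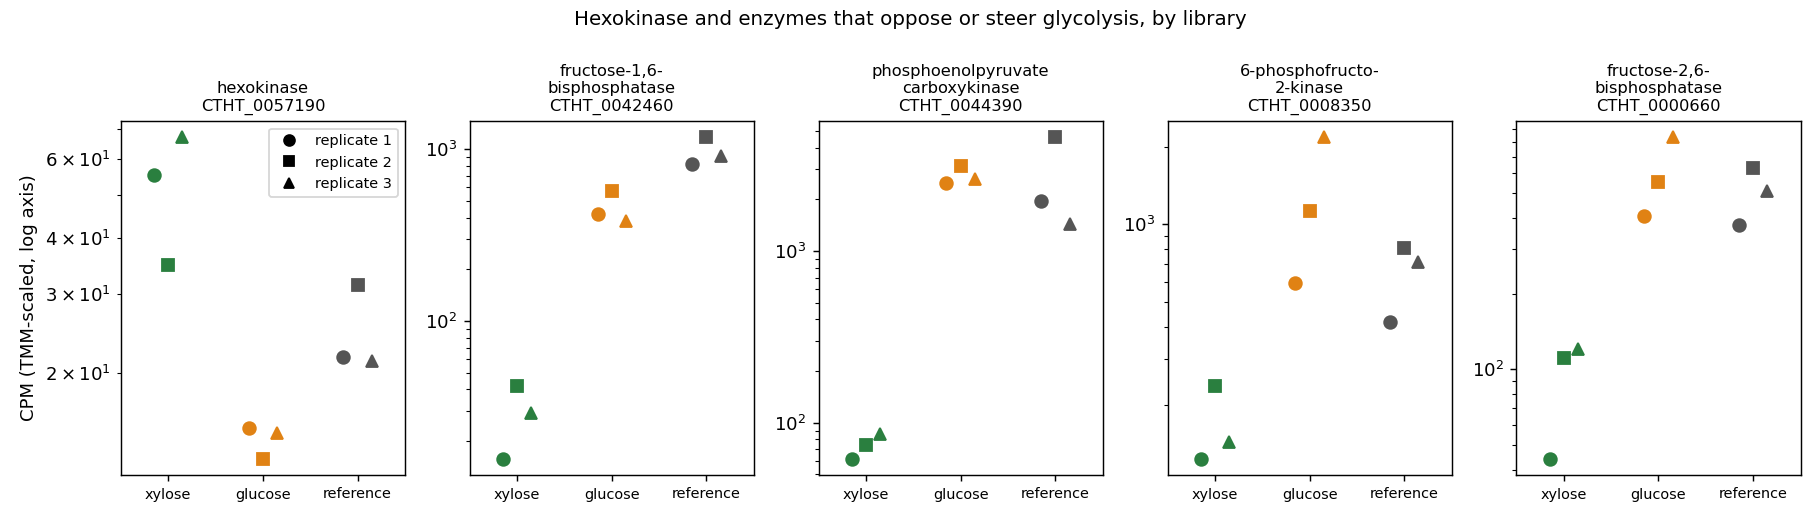
Transcript level (CPM scaled by TMM, log axis, 1 scale per panel) of hexokinase, fructose-1,6-bisphosphatase, phosphoenolpyruvate carboxykinase, 6-phosphofructo-2-kinase and fructose-2,6-bisphosphatase in each library. Symbols mark the replicate number. All xylose libraries lie above the others for hexokinase (34.8 to 67.1 CPM) and below the others for the remaining 4 genes.

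Behind pyruvate kinase, genes that bring pyruvate into the mitochondrion and oxidize it were highest in xylose. The mitochondrial pyruvate carrier gene CTHT_0072990 had 115, 65.1 and 112 CPM in xylose, 23.1, 23.7 and 25.0 CPM in glucose, and 4.37, 9.55 and 4.73 CPM in the reference. The conditions did not overlap, and the gene was higher by 3.97 in xylose than in the reference (SE 0.37, adjusted p = 8.44e-06, edgeR), by 1.95 in glucose than in the reference (SE 0.34, adjusted p = 0.00104, edgeR) and by 2.02 in xylose than in glucose (SE 0.34, adjusted p = 0.000579, edgeR). The E1 beta subunit of pyruvate dehydrogenase (CTHT_0006350), which forms acetyl-CoA from pyruvate, had 408, 476 and 512 CPM in xylose, 95.6, 78.4 and 87.4 CPM in glucose, and 49.1, 60.0 and 38.2 CPM in the reference. It was higher by 3.24 in xylose than in the reference (adjusted p = 6.93e-06, edgeR) and by 2.42 in xylose than in glucose (adjusted p = 8.32e-05, edgeR).

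Pyruvate dehydrogenase kinase (CTHT_0013820), known from other species as an inhibitor of that enzyme, went the other way, with 46.6, 18.2 and 49.0 CPM in xylose, 106, 105 and 89.4 CPM in glucose, and 92.9, 181 and 113 CPM in the reference. It fell by 1.77 in xylose against the reference (adjusted p = 0.00182, edgeR) and was lower in xylose than in glucose (-1.40, adjusted p = 0.00946, edgeR). L-lactate dehydrogenase (CTHT_0055530), whose reaction joins pyruvate and lactate in a direction not tested here, had 54.7, 331 and 203 CPM in xylose, 462, 745 and 1206 CPM in glucose, and 699, 670 and 674 CPM in the reference. It was lower in xylose than in the reference (-1.79, adjusted p = 0.0170, edgeR) and than in glucose (-2.04, adjusted p = 0.0126, edgeR), the second of which was not called when glucose replicate 3 was omitted (-1.59, adjusted p = 0.0577). Of the 8 genes listed for the use of pyruvate, 5 rose and 2 fell in xylose, 3 rose and 1 fell in glucose, and 5 were higher and 2 lower in xylose than in glucose. The 4 of 8 called in glucose are no more than the 49.5% of all genes called there, and the 7 of 8 called in xylose and between the sugars stand beside 64.6% and 50.8%. The product names came from the annotation held in part, so changed genes are more likely to be listed. The shares are therefore not comparable, and these counts are no result about the list. Among the calls in glucose against the reference, that of CTHT_0072990 was the one kept whichever library was omitted. Between the sugars, the calls of the second carrier gene (CTHT_0014330, 0.73) and of the acetyltransferase subunit (CTHT_0032020, 1.37) were lost when glucose replicate 1 (0.50 and 1.22) or glucose replicate 2 (0.66 and 1.30) was omitted, and the first also when any one of the xylose libraries was.

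As a description of likeness, each of the 3 genes was correlated on log2 CPM with the genes that had reads in every library (6864 others). The 9 points share 3 conditions, so that a high r also reflects the difference between sugar and no sugar. The genes nearest to phosphofructokinase (CTHT_0014530) were CTHT_0004050, CTHT_0045520, CTHT_0003010, CTHT_0010310 and CTHT_0005540 (r = 0.991 to 0.992). Those nearest to GAPDH (CTHT_0004880) were CTHT_0050470, CTHT_0001220, CTHT_0012320, CTHT_0037550 and CTHT_0013090 (r = 0.980 to 0.984). Those nearest to pyruvate kinase (CTHT_0017880) were CTHT_0061890, CTHT_0008950, CTHT_0060870, CTHT_0056410 and CTHT_0047780 (r = 0.979 to 0.992). No other glycolytic gene was among these 5 for any member.

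Among the 10 glycolytic genes, the nearest was triosephosphate isomerase (CTHT_0025650) for phosphofructokinase, with r = 0.982 and rank 15 of 6864. Phosphoglycerate kinase (CTHT_0037370) was nearest for GAPDH, with r = 0.951 and rank 30, and glucose-6-phosphate isomerase (CTHT_0035120) for pyruvate kinase, with r = 0.970 and rank 22. The 3 members correlated with one another at r = 0.887 to 0.896. Hexokinase (CTHT_0057190) stood apart from all 3, with r = 0.0921 to phosphofructokinase, -0.124 to GAPDH and 0.309 to pyruvate kinase, and aldolase (CTHT_0050360) had 0.486, 0.676 and 0.402 to the same genes.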

How the data were processed

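The authors mapped single-end reads of polyA-selected libraries to the Ensembl release 28 genome using Tophat2, counted them with summarizeOverlaps, and deposited raw counts per gene, which were used as deposited. The counting mode, strand setting and versions are not given in the sources used here, so genes that overlap or are nearly identical could share reads. The analysis used edgeR 4.0.16 in R 4.3.3 (with limma 3.58.1): TMM scaling, filterByExpr (minimum count 10), quasi-likelihood test, 3 conditions in 1 model over 9 libraries (residual degrees of freedom 6), Benjamini-Hochberg adjustment, threshold 0.05. SE is the size of a log2-fold change divided by the square root of F. The procedure was tested on simulated data. The fit replaces the DESeq2 test of the study, which was run as an alternative (DESeq2 1.42.0). Of the genes listed, 7472 of 7785 matched locus tags of RefSeq, used for gene type only. Product names come from annotation columns of the study, held in part, so that changed genes are more likely to be in every list. No coordinates, lengths or sequences were used here, so levels were not compared between genes. Members and lists were chosen with earlier results of these data known. Named are the members, every listed gene on which a result turns, and the 5 genes of highest r per member. Alternatives were other scalings, filters, thresholds and fits, the replicate number as a block, and leaving out each library. The labels and the Methods differ in the preculture medium and in the depletion time (48 h and 42 h). The Methods also give no last 6 h step for the reference. Whether time and medium change were matched between the reference and the sugars could not be checked. No pair of replicates differed by less than sampling noise.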

Additional observations from a re-analysis of the deposited data

How the results depend on the processing

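For phosphofructokinase (CTHT_0014530) both calls against the reference, and for pyruvate kinase (CTHT_0017880) that in xylose, held under every alternative run. At a threshold of 0.01, GAPDH (CTHT_0004880, 2.17) and pyruvate kinase (1.44) were no longer called in glucose, which left 1 of the 3 genes. Of all genes tested, 2161 of 6904 were called there. In xylose GAPDH was called with total counts (1.65, adjusted p = 0.0350), the DESeq2 Wald test (1.53, adjusted p = 0.0222), the replicate block (1.71, adjusted p = 0.0437, edgeR) and a threshold of 0.10 (1.57). With total counts, which moved the median of xylose against glucose over all genes from 0.16 to 0.34, phosphofructokinase reversed there to 0.019. Leaving out 1 library each gave 1 to 3 called members in glucose, 2 to 3 in xylose and 0 between the sugars. GAPDH ranged from 1.78 to 3.33 in glucose and from 1.06 to 2.63 in xylose, and pyruvate kinase from 1.18 to 2.18 in glucose.

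Of the other 7 glycolytic genes, 3 were called in glucose and 3 in xylose at 0.01, and 2 between the sugars with total counts, with only the compared conditions or at 0.10. Over all genes, 2161 of 6904 were called in glucose at 0.01, against 3416 at 0.05. Leaving out 1 library gave 3 to 6, 4 to 6 and 1 to 2. In glucose the 3 came without glucose replicate 2 or 3, in fits that called 2522 of 6957 and 2782 of 6964 genes. The 6 came without reference replicate 2, where 3837 of 6959 genes were called. These counts are therefore no result about the 7 genes. Libraries of the same replicate number were not clearly paired, with correlations of deviations from -0.278 to 0.278, while unlike numbers reached 0.28. Those among the first replicates were all positive (0.158, 0.203 and 0.278), and whether these share an effect was not tested. The block leaves the ratio differences (1.32, 0.56 and 0.76) as they are by construction.

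Signs turned only where the reported value was not called. Enolase (CTHT_0067300) between the sugars was -0.040 with DESeq2 size factors, -0.039 with the DESeq2 Wald test, -0.11 with another TMM reference library, -0.10 without a filter, -0.13 with 10 counts in every library, -0.0050 with the replicate block and -0.12 with only the compared conditions, and -0.22 to 0.27 with 1 library left out. Total counts gave -0.015 for CTHT_0044390 in glucose and 0.15 for transaldolase (CTHT_0013420) between the sugars. With 1 library left out, values in glucose ran from -0.25 to 0.71 (CTHT_0044390), -0.062 to 0.67 (CTHT_0000660), -0.16 to 0.74 (CTHT_0055530), -0.36 to 1.04 (CTHT_0049030) and -0.039 to 0.79 (CTHT_0032020), in xylose from -0.42 to 0.22 (CTHT_0050360) and -0.011 to 0.44 (CTHT_0010800), and between the sugars from -0.046 to 1.03 (CTHT_0062350), -0.36 to 0.20 (CTHT_0013420) and -0.75 to 0.041 (CTHT_0037370). The causes were not tested.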

Other observations

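The listed genes of the pentose phosphate pathway were highest in xylose with 1 exception, transaldolase. The list mixes genes of the oxidative branch of this pathway with transketolase and transaldolase, so it does not stand for the route of xylose into glycolysis. Transketolase (CTHT_0066780), which passes carbon units between sugar phosphates, had 2032, 2248 and 3167 CPM in xylose, 420, 368 and 419 CPM in glucose, and 61.7, 131 and 49.1 CPM in the reference. The conditions did not overlap, and it was higher by 4.94 in xylose than in the reference (SE 0.51, adjusted p = 1.52e-05, edgeR), by 2.32 in glucose than in the reference (SE 0.45, adjusted p = 0.00197, edgeR) and by 2.63 in xylose than in glucose (SE 0.46, adjusted p = 0.000782, edgeR). Of the 5 genes listed for this pathway, 5 rose in xylose and 3 in glucose, and 4 were higher in xylose than in glucose, while 32.3%, 24.0% and 28.2% of all genes tested were higher in these comparisons. The product names came from the annotation held in part, so changed genes are more likely to be listed and the shares are not comparable. Transaldolase (CTHT_0013420) differed by -0.04 between the sugars (adjusted p = 0.946, edgeR), and its rise in xylose (1.61) and in glucose (1.65) was not called when reference replicate 1 (1.39 and 1.44) or reference replicate 3 (1.41 and 1.45) was omitted, that in glucose also not without glucose replicate 3 (1.46).

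Glucose-6-phosphate 1-dehydrogenase (CTHT_0057650), which opens the oxidative branch, had 445, 234 and 544 CPM in xylose, 155, 151 and 189 CPM in glucose, and 45.4, 70.6 and 56.3 CPM in the reference. It was higher by 2.83 in xylose (adjusted p = 5.42e-05, edgeR) and by 1.52 in glucose (adjusted p = 0.00403, edgeR) than in the reference. Its difference between the sugars (1.30, adjusted p = 0.00785, edgeR) was 1.12 without glucose replicate 1 (adjusted p = 0.0522).

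Of 4 sugar transporter genes, all listed from changed genes, 2 fell in xylose and 3 fell in glucose, 1 of them (CTHT_0021010) not without glucose replicate 1 (-2.58, adjusted p = 0.0533, edgeR). Of all genes tested, 64.6% were called in xylose and 49.5% in glucose, so that these counts are no result about the list. Some of the calls rest on few reads. CTHT_0021010 had 9, 3 and 14 reads in the glucose libraries. CTHT_0049030, which fell in xylose, had 18, 16 and 9 reads in the xylose libraries. The putative high-affinity glucose transporter CTHT_0054950 had 17.8, 15.3 and 10.9 CPM in xylose, 20.9, 16.8 and 14.6 CPM in glucose, and 95.1, 68.0 and 81.8 CPM in the reference. It was lower in xylose (-2.48, SE 0.27, adjusted p = 2.05e-05, edgeR) and in glucose (-2.23, SE 0.27, adjusted p = 0.000123, edgeR), and the sugars overlapped.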
